A study of Mus musculus with 6 samples.

Results

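The Fc gamma receptors of the mouse and the signalling chain they share were followed as 5 genes, chosen by symbol from the 46141 genes of the deposited table: Fcgr1, Fcgr3, Fcgr4, Fcgr2b and Fcer1g. All 5 were among the 9874 coding genes tested. RNA came from peritoneal cells of male Balb/c mice of 6 to 8 weeks, with no genetic change named, that had adhered to plastic for 4 h and are labelled as macrophages. Every mouse had received thioglycollate broth (2 mL at 3%) 3 days before sampling, an irritant that recruits monocytes and macrophages to the peritoneum, so the controls carried that stimulus too. The PBS group then received 0.2 mL of phosphate-buffered saline into the peritoneum, and the BSN-37 group 0.2 mL of BSN-37 at 48 µg/mL, named only by that code, and both groups were sampled 12 h later. Each group held 18 mice pooled by 6, giving 3 pools and 3 libraries per group, so that differences between single mice are not visible.

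Fc gamma receptors bind the constant part of IgG antibodies and let macrophages take up antibody-coated particles and respond to immune complexes. FcγRI (Fcgr1) binds single IgG molecules with high affinity, FcγRIII (Fcgr3) and FcγRIV (Fcgr4) bind complexes, and all of these depend on the FcR gamma chain (Fcer1g) for surface expression and signalling. The chain carries an immunoreceptor tyrosine-based activation motif, whose phosphorylated tyrosines bring in the kinase Syk. FcγRIIb (Fcgr2b) works without the chain and carries an inhibition motif that brings in the phosphatase SHIP-1, so that the balance of the receptors sets the threshold of the response.

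The opposed motifs are shown because they divide the family into the activating side and the inhibitory side that the values below compare. Both lie on the minus strand of chromosome 1 (GRCm38), at chr1:171229889-171230072 across 2 exons for Fcer1g and at chr1:170961071-170961088 within 1 exon for Fcgr2b. They are the coding DNA of GENCODE M21 transcripts, with the tyrosine codons in capitals (codons 65 and 76 of 86 in Fcer1g, codon 319 of 340 in Fcgr2b).
Fcer1g: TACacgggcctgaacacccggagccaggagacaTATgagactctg
Fcgr2b: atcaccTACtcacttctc
A search of the 5 coding sequences for the spacing of the activation motif found it in Fcer1g and in no other member. The shorter inhibition pattern is loose, and its letters also occur at 3 places in Fcgr1, 1 in Fcgr4 and 1 in Fcer1g, which by itself does not mark a working motif.

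Fcgr2b, Fcgr4, Fcgr3 and Fcer1g lie on chromosome 1 within 276 kb, and Fcgr1 on chromosome 3 from 96282909 to 96293969, minus strand. Fcgr2b spans 170958617 to 170976547 and Fcgr3 171051174 to 171064935, both on the minus strand, with Fcgr4 between them on the plus strand from 171018920 to 171029761 and Fcer1g from 171229572 to 171234365 on the minus strand. Fcgr2b and Fcgr3 are close paralogs over the IgG-binding part. Of the 50-base windows of the Fcgr3 transcript 12.8% occur unchanged in Fcgr2b, and of 100-base windows 3.53%, while 4.75% and 1.28% of the longer Fcgr2b transcript occur in Fcgr3. Counting every other gene, 12.5% of the 50-base windows and 6.79% of the 100-base windows of Fcgr2b occur elsewhere among annotated transcripts. No such window of Fcgr1, Fcgr4 or Fcer1g occurs in the transcripts of another gene. The sources used here do not say how shared reads were counted, so the levels of Fcgr2b and Fcgr3 carry that uncertainty. The longest stretch identical in both, 129 coding bases joined across 2 exons (chr1:170966674-170968081 in Fcgr2b and chr1:171054167-171057792 in Fcgr3, minus strand), shows how alike they are.
Fcgr2b and Fcgr3: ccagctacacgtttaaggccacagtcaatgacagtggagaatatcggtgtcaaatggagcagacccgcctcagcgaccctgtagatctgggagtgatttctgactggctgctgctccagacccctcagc

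Libraries totalled 55882693 to 65456020 counts. PBS library 1 stood apart, scoring 30.6 on the leading principal component (41.5% of the variance), where the rest scored -12 to 1.85. Macrophage genes were abundant in every library, with Adgre1 (F4/80) at 264 to 425 FPKM, Csf1r at 411 to 515 and the lysozyme gene Lyz2 at 13215 to 15802, where FPKM is the reads scaled by gene length and library total. Of the 7 macrophage genes listed, 3 stood higher after BSN-37 and 4 lower (median log2 difference -0.04), 0 at an unadjusted p under 0.05. Of other cells that carry members, NK cell genes summed to 0.308 to 1.85 FPKM over 9 genes, 6 of them at 0 in all libraries including Ncr1, and mast cell genes to 1.08 to 2.96 over 9, with Fcer1a at 0 in all. T cell genes summed to 0.395 to 1.19 FPKM over 10 genes. Dendritic cell genes summed to 9.82 to 11.3 FPKM over 8 genes under PBS and 6.48 to 11.7 under BSN-37. All 3 tested stood lower (median log2 difference -0.36), 1 at an unadjusted p under 0.05 and 0 past the threshold in edgeR or DESeq2. B cell genes summed to 32.1 to 51.5 FPKM over 10 genes under PBS and 48.5 to 109 under BSN-37. Neutrophil genes summed to 133 to 164 and 159 to 263 over 12, with Elane at 0, and Csf3r alone gave 54.2 to 87.2. Of the 7 tested, 4 stood higher and 3 lower, with 1 higher and 1 lower at an unadjusted p under 0.05. Of these, 0 passed the edgeR threshold and DESeq2 called 1, Csf3r. Monocyte genes summed to 387 to 548 and 463 to 683 over 8, of which S100a4 alone gave 268 to 412, and 7 of the 8 stood higher after BSN-37, with a median log2 difference of 0.75. At an unadjusted p under 0.05, 5 of them were higher and 1 lower, with 0 past the edgeR threshold, and DESeq2 called 2, Ly6c2 and Ccr2. Of 10 genes of large resident peritoneal macrophages 7 stood higher (median 0.48), 4 higher and 1 lower with an unadjusted p under 0.05, with 0 past the edgeR threshold and 1, Lyz1, called by DESeq2 as lower.

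With edgeR, 1 of 9874 coding genes passed the Benjamini-Hochberg threshold of 0.05 (0.0101%, either direction), and it is not among the 5 genes. All 5 stood higher after BSN-37 by the fitted difference, where 49.5% of all tested genes did, and 0 of the 5 passed, with 1 (Fcgr2b) at an unadjusted p under 0.05, as 9.11% of all tested genes were. DESeq2 also called 0 of the 5, while it called 119 genes in all (1.21%). At an unadjusted p under 0.05, 4.71% of all tested genes were higher and 4.41% lower. In 1 of the 5 the groups did not overlap, again Fcgr2b, on the higher side, as in 7.84% of all tested genes, while 6.77% did so on the lower side. These are pools of cells, in which more cells of a type and more RNA per cell cannot be told apart.

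Among the 5, Fcgr2b, the inhibitory receptor, was the only one whose groups did not overlap. It had 118, 125 and 109.8 FPKM in PBS pools 1, 2 and 3, and 139.6, 164 and 154 in the BSN-37 pools of those numbers. Every BSN-37 library stood above every PBS library, with means of 117 ± 7.39 and 152 ± 12.1 (SD over n = 3 pools, as with each ± below). The log2 difference was 0.32 (SE 0.10, 95% interval 0.08 to 0.56), a fold of 1.25, with an unadjusted p of 0.0141 and an edgeR adjusted p of 0.44 over all coding genes, so the difference did not pass. B cells also carry Fcgr2b, and all 6 tested B cell genes stood higher (median log2 difference 1.16, 5 with an unadjusted p under 0.05, 0 past the edgeR threshold and 4 past that of DESeq2): Cd79a, a signalling chain of B cell antigen receptors, had 1.05, 1.74 and 1.32 FPKM under PBS and 5.42, 4.52 and 2.82 under BSN-37. BSN-37 library 3, whose summed B cell genes (48.5 FPKM) lay below those of PBS library 2 (51.5), had 154 FPKM of Fcgr2b against 125. The part of B cells in the result was not tested. Without BSN-37 library 2 or PBS library 3 the log2 difference was 0.29 in each case and the unadjusted p 0.056 and 0.0617.

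**Figure D1:**
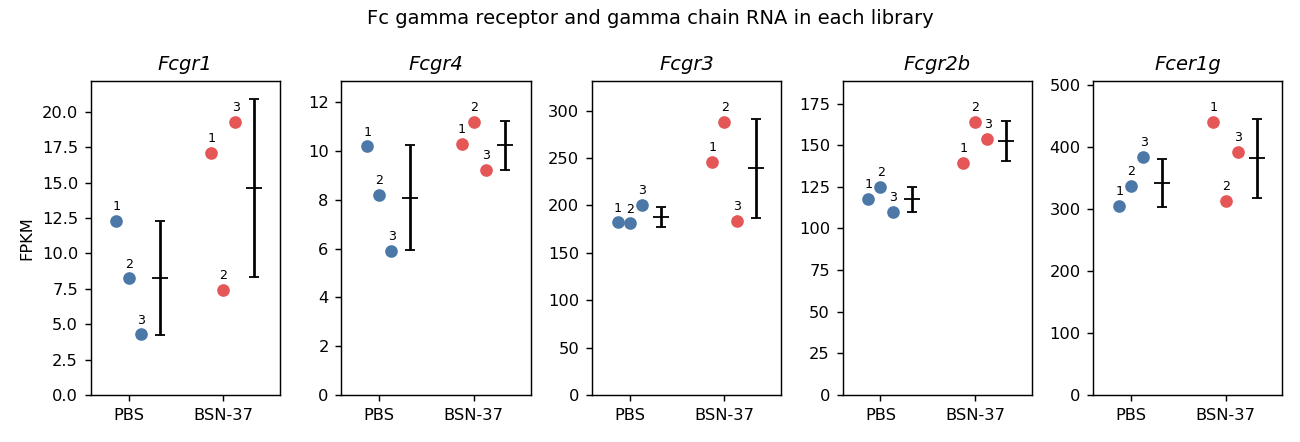
FPKM of the 5 genes in each library (points, numbered by library; blue PBS, red BSN-37), with the mean and SD of 3 pools to the right of each group; each panel has its own axis from 0. Only for Fcgr2b do the groups not overlap, and Fcgr1 spreads widest relative to its mean.

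Fcgr3, the low-affinity activating receptor, was the most abundant receptor of the family. Its levels were 182, 181 and 200.1 FPKM under PBS and 246, 288 and 184 under BSN-37. BSN-37 libraries 1 and 2 lay above all PBS libraries and library 3 within their range, giving means of 188 ± 10.8 and 239.6 ± 52.6. The log2 difference was 0.32 (SE 0.16, 95% interval -0.05 to 0.68, edgeR adjusted p = 0.579). Without BSN-37 library 2 it was 0.20. NK cells also carry Fcgr3, and their genes were near 0, while neutrophil genes, another possible source, summed highest (263 FPKM) in BSN-37 library 2, where Fcgr3 was highest. Their part in the result was not tested.

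Fcgr1, the high-affinity receptor, had the largest edgeR log2 difference of the 5 genes and also varied most within the groups relative to its mean. It had 12.3, 8.24 and 4.28 FPKM under PBS and 17.1, 7.44 and 19.3 under BSN-37. BSN-37 library 2 lay below PBS libraries 1 and 2, and the highest library exceeded the lowest 2.88-fold within the PBS group and 2.60-fold within the BSN-37 group. Means were 8.28 ± 4.02 and 14.6 ± 6.31 FPKM, and the log2 difference was 0.81 (SE 0.43, 95% interval -0.16 to 1.78, edgeR adjusted p = 0.59). It was 1.22 without PBS library 1, the library that stood apart, and 0.51 without PBS library 3, and it passed in neither case (adjusted p = 0.542 and 0.645). The interval allows anything from a slight decrease to a fold of 3.44, so that a change of Fcgr1 was not resolved by these pools.

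Fcgr4, an activating receptor of monocytes, macrophages and neutrophils, stood in the same low range as Fcgr1. It had 10.2, 8.20 and 5.90 FPKM under PBS and 10.3, 11.2 and 9.22 under BSN-37. PBS library 1 reached into the BSN-37 range, and the other PBS libraries lay below it. The log2 difference was 0.31 (SE 0.20, 95% interval -0.14 to 0.76, edgeR adjusted p = 0.644). It was 0.52 without PBS library 1 and 0.14 without PBS library 3, with adjusted p of 0.528 and 0.786. Ccr2, a chemokine receptor gene of inflammatory monocytes named after its values were seen, had 18.5, 27.9 and 27 FPKM under PBS and 49.6, 58.3 and 57.6 under BSN-37, with groups that did not overlap (log2 difference 1.14, DESeq2 adjusted p = 3.47e-07, edgeR adjusted p = 0.278). Monocytes also carry the other members, and the part of monocytes or of resident macrophages in any of these levels was not tested.

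Fcer1g, the chain itself, was the most abundant of the 5 in every library and ranked 87 among all tested coding genes by mean FPKM. It had 305, 337 and 383 FPKM under PBS and 439.8, 313 and 391 under BSN-37. The groups overlapped widely, with means of 341 ± 39.4 and 381 ± 63.8. The log2 difference was 0.14 (SE 0.17, 95% interval -0.25 to 0.53, edgeR adjusted p = 0.803), which leaves room for a fold between 0.84 and 1.44. It was 0.00 without BSN-37 library 1, 0.07 without PBS library 1, 0.25 without PBS library 3 and 0.29 without BSN-37 library 2. Tyrobp, which encodes DAP12, the other adaptor of this kind in macrophages, had 565 ± 26.7 and 624 ± 69.7 FPKM (log2 difference 0.11) and was chosen for this comparison after its values were seen.

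In the authors' deposited table the log2 fold changes of the 5 genes were 0.27 (Fcgr1), 0.27 (Fcgr3), 0.24 (Fcgr4), 0.12 (Fcer1g) and 0.30 (Fcgr2b). The p-value in the authors' deposited table was 0.00586 for Fcgr2b and 0.0718 to 0.449 for the other members. DESeq2 run here gave log2 differences of 0.82 (Fcgr1), 0.33 (Fcgr3), 0.32 (Fcgr4), 0.15 (Fcer1g) and 0.33 (Fcgr2b). The deposited value was largest for Fcgr2b, and that of DESeq2 here for Fcgr1. For Fcgr1 the DESeq2 p was 0.173 as deposited and 0.159 here. The cause of the gap was not tested.

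**Figure D2:**
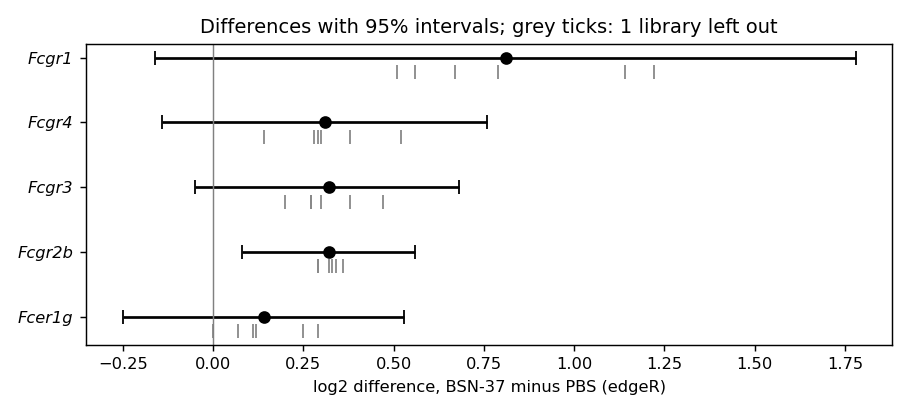
log2 difference of BSN-37 minus PBS from edgeR with its 95% interval for each gene (black), and the same difference with each of the 6 libraries left out in turn (grey ticks). The interval of Fcgr2b runs from 0.08 to 0.56, those of the other genes include 0, and the refits of Fcgr1 run from 0.51 to 1.22.

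The order of the levels per length was the same at the top in all 6 libraries: Fcer1g, then Fcgr3, then Fcgr2b. Fcgr1 and Fcgr4 formed a low tier and changed places, Fcgr1 standing above Fcgr4 in 4 libraries and below it in PBS library 3 and BSN-37 library 2, so these neighbours do not differ beyond their spread. Fcgr3 gave 56.2 to 62.5% of the summed receptor FPKM under PBS and 50.2 to 61.3% under BSN-37. Fcgr2b gave 34.3 to 38.7% and 33.8 to 42.0%, Fcgr1 1.34 to 3.81% and 1.58 to 5.27%, and Fcgr4 1.84 to 3.17% and 2.37 to 2.52%. The summed receptor RNA was 320.1 to 323 FPKM under PBS and 413, 471 and 366 under BSN-37.

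The balance of activating to inhibitory receptors, the summed FPKM of Fcgr1, Fcgr3 and Fcgr4 over that of Fcgr2b, did not move in 1 direction. It was 1.73, 1.58 and 1.92 under PBS and 1.96, 1.88 and 1.38 under BSN-37. On the log2 scale the means were 0.80 ± 0.14 and 0.78 ± 0.27, a difference of -0.02, smaller than the spread within either group, and -0.11 to 0.14 with 1 library left out. BSN-37 library 3 held the lowest ratio of the 6, with the least Fcgr3 of its group. The chain over the summed activating receptors was 1.49, 1.71 and 1.82 under PBS and 1.61, 1.02 and 1.84 under BSN-37. BSN-37 library 2 stood alone at the low end, with the most Fcgr3 and the least Fcer1g of its group, and the log2 means were 0.74 ± 0.15 and 0.53 ± 0.45. The difference of -0.21 became 0.05 when BSN-37 library 2 was left out and -0.38 when library 3 of that group was. No test was made of these ratios, since they are scores over chosen genes.

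**Figure D3:**
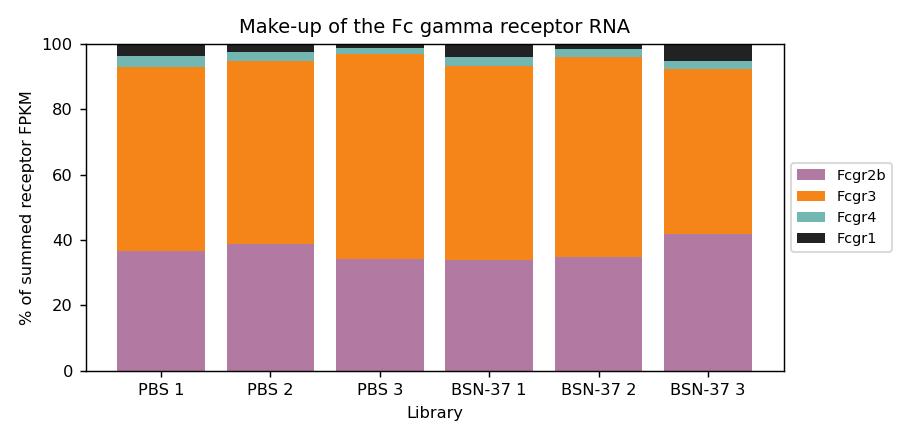
Share of each receptor in the summed FPKM of the 4 receptors, per library, in percent. Fcgr3 and Fcgr2b make up nearly all of it, and Fcgr2b ranges from 33.8% to 42.0%, with both ends in the BSN-37 group.

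Fcgr1 is known as an interferon-induced gene in macrophages, and its library order was set beside a list of interferon-stimulated genes. The mean level of 30 such genes, in log2(FPKM + 1) relative to the PBS mean, was 0.64, -0.23 and -0.41 under PBS and 0.80, -0.74 and 0.94 under BSN-37. BSN-37 library 3, BSN-37 library 1 and PBS library 1 were, in that order, the highest for both the list and Fcgr1, while the lowest was BSN-37 library 2 for the list and PBS library 3 for Fcgr1. Of the list, 28 of 30 were higher after BSN-37 with a median log2 difference of 0.42, 1 at an unadjusted p under 0.05 and 0 past the threshold in edgeR or DESeq2, beside a median of -0.00 over all tested genes. The groups overlapped for each of the 30 tested genes. Iigp1 and Cxcl9, listed but too low to be tested, did not overlap and were higher after BSN-37. Iigp1 had 0.258, 0.152 and 0.276 FPKM under PBS and 1.13, 0.384 and 1.16 under BSN-37. Cxcl9 was near the floor at 0.00965 to 0.086 FPKM, with 2, 4 and 4 reads under PBS and 9, 18 and 9 under BSN-37. Among all tested genes, 7.84% did not overlap on the higher side. Without PBS library 1 the median of the tested genes of the list was 0.84, with 3 at an unadjusted p under 0.05. In that refit the median over all tested genes was 0.01. Of these 9874 genes, 458 were higher and 365 lower at an unadjusted p under 0.05. Gbp7, a guanylate-binding protein gene, had 2.20 ± 0.595 and 4.29 ± 2.04 FPKM (edgeR adjusted p = 0.509), and Ifih1, the RNA sensor MDA5, 14.1 ± 2.17 and 21.5 ± 10.2 (adjusted p = 0.611). The part of interferon signalling in the Fcgr1 levels was not tested.

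Of 6928 coding genes with a mean of at least 5 FPKM, the closest to Fcgr1 in library profile were Slfn4, Gm5431 and Slfn1, with root mean square differences of 0.142, 0.215 and 0.239 between centred log2(FPKM + 1) values over the 6 libraries. Slfn4 and Slfn1, interferon-responsive schlafen genes, had 25.9 and 31.7 FPKM in PBS library 1, 17.8 and 14.1 in BSN-37 library 2 and 49.3 and 52.0 in BSN-37 library 3. By this measure Fcgr4 ranked 233 for closeness to Fcgr1 (0.542), Fcgr2b 614 (0.602), Fcer1g 1120 (0.633) and Fcgr3 5191 (0.742). Closest to Fcgr3 were the ribosomal protein gene Rpl35 (0.0599), the chemokine receptor gene Cxcr4 (0.0626) and the cytochrome oxidase gene Cox6b1 (0.0728). Closest to Fcgr4 were Csf2rb2, a receptor chain of interleukin 3 (0.0717), Mxd1 (0.0896) and Arid5a (0.0915), to Fcgr2b Tmem50b (0.0430), Rell1 (0.0471) and Plcl2 (0.0487), and to Fcer1g Atn1 (0.0455), C130026I21Rik (0.0564) and Irf2 (0.0598). Between Fcgr2b and Fcgr3, the abundant receptors, the difference was 0.211. No member was among the 3 genes closest to another.

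**Figure D4:**
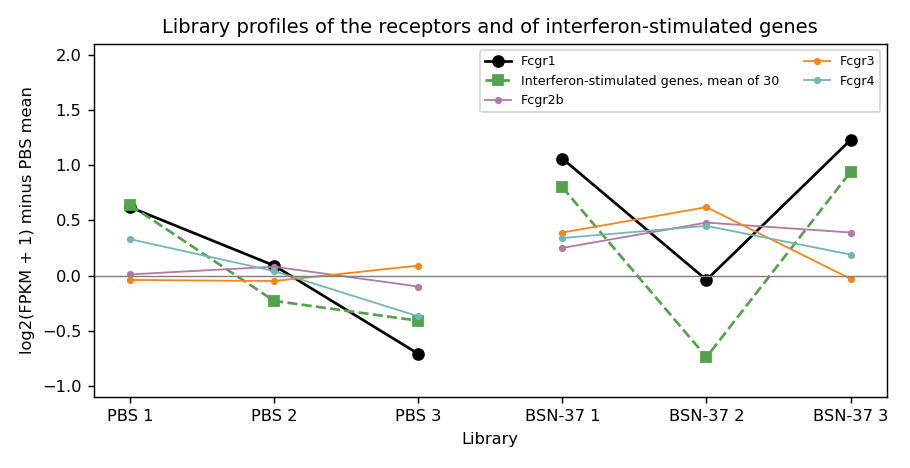
log2(FPKM + 1) relative to the PBS mean in each library for the 4 receptors and for the mean of 30 interferon-stimulated genes; lines join libraries of 1 group only as a guide. Fcgr1 and the interferon list are high in PBS library 1 and BSN-37 libraries 1 and 3, while Fcgr2b, Fcgr3 and Fcgr4 peak in BSN-37 library 2. Fcgr4 is also high in PBS library 1 (0.33) and BSN-37 library 1 (0.34), beside 0.45 at its peak.

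The upstream sequence of Fcgr4 is shown to show a match to an interferon-related motif, and no contrast with the other members is drawn from it (RefSeq, GRCm38.p6, the 250 bases before the start). The window is chr1:171018676-171018925, plus strand. Capitals mark the core of an interferon-stimulated response element, a 4-base half-site repeated after 2 bases of any kind, searched on both strands.
Fcgr4: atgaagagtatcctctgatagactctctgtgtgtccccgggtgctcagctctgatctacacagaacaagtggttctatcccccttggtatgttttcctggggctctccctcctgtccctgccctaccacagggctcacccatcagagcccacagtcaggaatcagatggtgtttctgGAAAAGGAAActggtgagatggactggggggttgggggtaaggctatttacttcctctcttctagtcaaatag
The match lies 64 bases before the start. Of 32851 RefSeq windows of this length 2.98% hold the response element core. GAGGAA, the core letters of a site for PU.1 (the myeloid factor of Spi1), was found in the windows of Fcgr1, Fcgr3 and Fcgr4 and in 23.3% of all windows, with no overlap between matches. The windows of Fcgr1 and Fcgr3 did not hold the response element core, and those of Fcgr2b and Fcer1g held neither that core nor GAGGAA. All windows precede RefSeq starts, and those of Fcgr2b and Fcgr3 lie inside the gene spans given above, so starts outside RefSeq were not searched. A match describes letters and was not tested as a site.

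Around the receptors, genes of signalling and engulfment downstream of the chain stayed centred on 0. Of 49 tested, 23 were higher and 26 lower, with a median log2 difference of -0.01, and 2 were higher and 2 lower at an unadjusted p under 0.05. None passed in edgeR or DESeq2. Wipf1, a partner of the actin regulator WASP, had 20.0 ± 2.89 and 25.6 ± 1.80 FPKM, and the kinase gene Prkce 5.44 ± 0.162 and 6.57 ± 0.342. Myo10, a myosin of phagocytic extensions, had 27.4 ± 3.19 and 16.8 ± 4.39, and the phospholipase gene Pld1 22.7 ± 3.49 and 17.6 ± 0.815. The edgeR adjusted p of these 4 lay between 0.426 and 0.532. Among kinases that act at the receptor, named here after their values were seen, the log2 differences were -0.00 for Syk, 0.11 for Lyn, -0.23 for Fgr and -0.26 for Fyn (edgeR adjusted p between 0.554 and 0.998).

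ITIM receptors and inhibitory phosphatases, the side of Fcgr2b, also lay on both sides of 0. Of 25 tested, 11 were higher and 14 lower (median -0.02), with 3 higher and 1 lower at an unadjusted p under 0.05 and 0 past the edgeR threshold. Cd200r1, an inhibitory receptor of myeloid cells, had 29.7 ± 5.16 FPKM under PBS and 46.1 ± 3.33 under BSN-37, and Cd300lf, which binds phosphatidylserine, 12.0 ± 2.64 and 27.0 ± 10.2. DESeq2 called both as higher (adjusted p = 0.0235 and 0.00624), while the edgeR adjusted p was 0.359 and 0.379. Sirpa, the receptor of CD47 that restrains phagocytosis, had 353 ± 32.1 and 442 ± 26.0, and Siglece, a sialic acid receptor, 17.1 ± 5.21 and 11.1 ± 2.05 (edgeR adjusted p = 0.506 and 0.444). Inpp5d, the gene of SHIP-1, and Ptpn6, the gene of SHP-1, were named after their values were seen, at log2 differences of -0.12 and -0.25.

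Other receptors and adaptors that use or resemble the gamma chain leaned to the higher side. Of 14 tested, 12 were higher and 2 lower (median 0.22), and 0 passed the threshold in edgeR or DESeq2. At an unadjusted edgeR p under 0.05, 4 were higher, as 4.71% of all tested genes were. In Cd300ld, an activating receptor that pairs with the chain, the values were 49.3 ± 11.1 and 76.9 ± 14.4 FPKM. The activating leukocyte receptor genes Lilra6 and Lilra5 had 25.2 ± 3.12 and 33.5 ± 1.90, and 1.30 ± 0.308 and 2.02 ± 0.484. Cd300lb, which pairs with DAP12, had 97.2 ± 8.70 and 124 ± 9.0. These 4 genes were named for their low p in this same comparison, and their edgeR adjusted p lay between 0.426 and 0.534. Their groups did not overlap, which that choice favours. Of all tested genes 7.84% did not overlap on the higher side. The list was highest in BSN-37 library 2, where neutrophil and monocyte genes also summed highest, and their part was not tested. Without PBS library 1 its median was 0.11, with 3 at an unadjusted p under 0.05, beside a median of 0.01 over all tested genes. Of all 9874 tested genes, 458 were higher and 365 lower at that p in the same refit.

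Genes of cytokine receptors and factors known to set Fc gamma receptor levels had a median log2 difference of 0.10, with 17 of 28 higher, 3 of them at an unadjusted p under 0.05, 0 past the edgeR threshold and 2 called by DESeq2. The groups did not overlap for 6 of the 28, all on the higher side, as in 7.84% of all tested genes. Ifngr1, a chain of the interferon gamma receptor and 1 of these 6, had 53.3 ± 5.56 and 73.0 ± 10.1 FPKM (edgeR adjusted p = 0.426). Cebpb, a transcription factor gene, had 13.3 ± 4.78 and 30.1 ± 9.60, and Csf3r, the G-CSF receptor, 58.3 ± 4.26 and 80.3 ± 8.77, which is also in the neutrophil list. These are the pair that DESeq2 called as higher (adjusted p = 0.00893 and 0.046, against 0.379 and 0.399 in edgeR). Without PBS library 1 the list had 22 of 28 higher, a median of 0.16 and 8 at an unadjusted p under 0.05, all 8 higher. In the same refit 5130 of all 9874 tested genes were higher, with a median of 0.01. At that p, 458 of them were higher and 365 lower. Of the remaining Fc and immunoglobulin receptors 6 of 13 were tested, 3 higher and 3 lower (median 0.01), with 0 whose unadjusted p was under 0.05 and 0 calls by edgeR or DESeq2. Fcrla, a B cell Fc receptor-like gene, had 0.97 ± 0.605 and 1.85 ± 0.869 FPKM, and Fcrls 3.18 ± 0.576 and 2.18 ± 0.773 (edgeR adjusted p = 0.56 and 0.579).

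**Figure D5:**
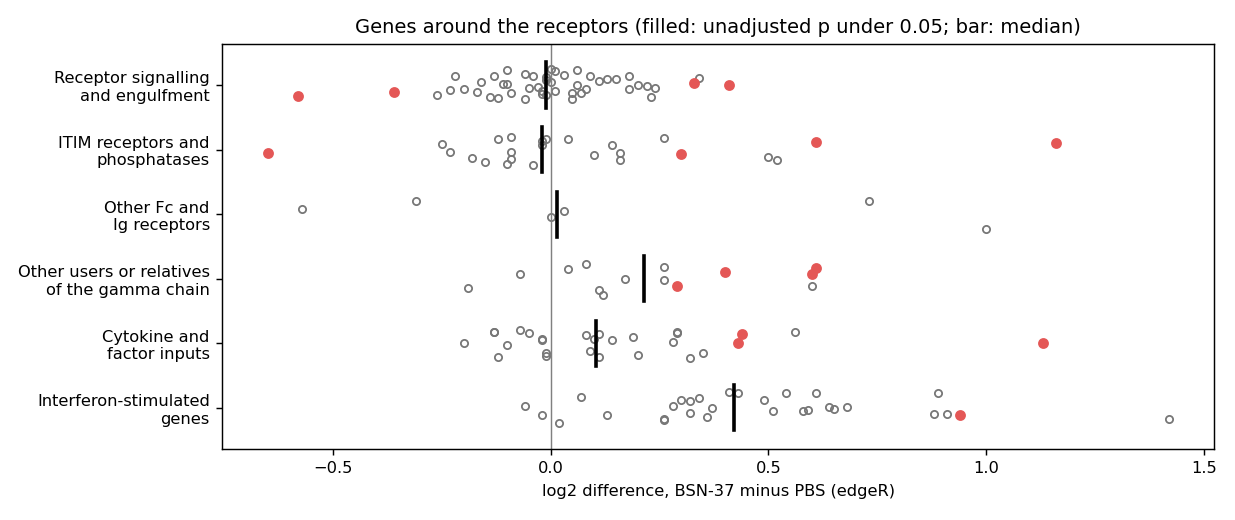
log2 difference of BSN-37 minus PBS (edgeR) for every tested gene of 6 lists around the receptors; filled points have an unadjusted p under 0.05 and black bars are medians. Signalling genes centre on 0 (median -0.01), and the median is 0.22 for users or relatives of the gamma chain and 0.42 for interferon-stimulated genes.

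On chromosome 1, 17 annotated genes lie from Fcgr2b to Fcer1g. Besides the members, 2 were tested, and neither stood higher: Sdhc, a subunit of succinate dehydrogenase, had a log2 difference of -0.03 (SE 0.12, edgeR adjusted p = 0.95) and Tomm40l, of the mitochondrial import channel family, -0.29 (SE 0.16, adjusted p = 0.607).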

How the data were processed

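Directional, rRNA-depleted RNA libraries were sequenced, per the labels' protocols; the design text speaks of arrays, but the values are of sequencing. The authors deposited whole-number read counts and FPKM per gene, per the file headers, with build GRCm38 per the submitters' processing notes; the sources used here do not name the aligner, counter, strand setting or annotation release. The authors' DESeq2 p-value and log2 fold change columns are quoted as deposited. Gene classes and coordinates came from GENCODE M21 (42456 of 43339 Ensembl IDs matched).

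Coding genes that reached 1 FPKM in 3 or more of the 6 libraries were tested with edgeR 4.0.16 in R 4.3.3 (TMM, quasi-likelihood, two-sided, no covariates), adjusted over all 9874. SE is the log2 difference over the root of F. DESeq2 1.42.0 and limma 3.58.1 were alternatives. The edgeR test was tried on simulated counts with known changes in 50 genes per fold. It called 13 of 50 at a fold of 1.5, 38 at 2 and 49 at 3 in the right direction, with 8 false calls. Most changes of 1.5-fold were thus missed. Library pairs differed beyond sampling noise (65.3 to 211 as chi-square over its degrees of freedom). p-values set the difference between groups against the spread between pools, which edgeR estimates with information from all tested genes. Members and lists were chosen with earlier results of these data known. Of the listed symbols, Lilrb4a, Lilr4b, Pira6 and Pira11 had no match. Named list genes are those of lowest p, at most 5 per list at an unadjusted p under 0.05, otherwise the 2 of lowest p. The result of 1 promoter motif search and 1 signalling gene are not reported here.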

Additional observations from a re-analysis of the deposited data

How the results depend on the processing

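For the 5 genes, 14 alternatives each (8 other settings and 6 refits with a library left out) left the edgeR, DESeq2 or limma adjusted p above 0.05, the lowest being 0.124 for Fcgr2b with DESeq2, and the log2 difference stood above 0 except for Fcer1g without BSN-37 library 1 (0.00). Over the 8 other settings the log2 differences ran from 0.75 to 0.82 for Fcgr1, 0.30 to 0.33 for Fcgr3, 0.30 to 0.36 for Fcgr4, 0.12 to 0.15 for Fcer1g and 0.32 to 0.37 for Fcgr2b. With a library left out they ran from 0.51 to 1.22, 0.20 to 0.47, 0.14 to 0.52, 0.00 to 0.29 and 0.29 to 0.36. The unadjusted p of Fcgr2b stayed under 0.05 in 8 of 8 other settings and 4 of 6 refits. The count of coding genes called, 1 in edgeR, was 0 with median-of-ratios factors, library totals, a minimum of 5 FPKM, limma or a replicate block, 2 with no FPKM filter, 119 with DESeq2, and 0 to 12 with a library left out (12 without BSN-37 library 2); the cause was not tested. Replicate numbers share no stated source, and deviations of same-numbered libraries correlated at 0.06, 0.14 and -0.07; with the replicate block the log2 differences were 0.79 (Fcgr1), 0.30 (Fcgr3), 0.34 (Fcgr4), 0.12 (Fcer1g) and 0.32 (Fcgr2b). Without Fcgr3 the activating to inhibitory ratio differed by 0.28 on the log2 scale in place of -0.02, by construction that of Fcgr1 and Fcgr4 alone. For 19 other named genes, 258 of 262 values stayed on their side of the threshold and in their direction, and the remaining 4 are the DESeq2 calls named above.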

Other observations

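Fcrla, which B cells express, ordered the 6 libraries exactly as the summed B cell genes did. Its levels were 0.721, 1.66 and 0.529 FPKM in PBS pools 1, 2 and 3, and 2.11, 2.55 and 0.876 in the BSN-37 pools of those numbers, beside sums of 32.3, 51.5 and 32.1, and of 94.9, 109 and 48.5. Fcrla rested on 63 to 251 reads per library. Fcrl1 and Fcmr, from the same list of Fc and immunoglobulin receptors, did not keep this order. Fcrl1 had 1.87, 3.07 and 2.7 FPKM under PBS and 2.92, 3.22 and 1.67 under BSN-37. Fcmr had 1.45, 2 and 0.822 under PBS and 3.04, 2.86 and 1.34 under BSN-37. Fcgr2b, which B cells share with macrophages, was highest in BSN-37 library 2 and lowest in PBS library 3, as the B cell sum was, while BSN-37 library 3 stood above BSN-37 library 1 and PBS library 2. The part of B cells in its levels was not tested.

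Fcgrt, the neonatal Fc receptor that recycles IgG inside cells, had 42.3 ± 8.14 FPKM under PBS and 34.8 ± 2.77 under BSN-37 (log2 difference -0.31, edgeR adjusted p = 0.579), and Trim21, the cytosolic antibody receptor, 6.63 ± 1.59 and 6.69 ± 2.62 (-0.00). Both were named after their values were seen.

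Of 1273 circular RNA loci, 1 has a member as host gene, in Fcgr1 at chr3:96284620-96285797. It had 2 junction reads in BSN-37 library 2 and 0 in the other libraries, which is the smallest count above 0 in that table and within the 3 counts that a count of 0 allows, so it shows no difference between the groups.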
